A study of Mus musculus with 9 samples.

Results

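The Ly6 surface antigen family of the mouse was followed here through 7 members, Ly6a, Ly6c1, Ly6c2, Ly6d, Ly6e, Ly6i and Ly6k, taken by gene symbol from a count table of 43432 genes. All 7 were found in the table, and 6 passed the filter on low counts that preceded the test; Ly6i did not. The table holds RNA sequencing counts of regulatory T cells (Tregs), the Foxp3-positive CD4 lineage that holds immune responses in check, from C57BL/6 mice. Sorted cells were activated on beads carrying antibodies to CD3 and CD28 and grown with 2000 U/ml interleukin-2, and RNA was taken on day 4. All mice carried Foxp3-Cre-GFP, in which Foxp3 drives Cre, together with the Cre-dependent reporter R26-LSL-RFP. The 4 Ezh2-deficient libraries had the genotype Ezh2-fl/fl, and of the 5 WT libraries replicates 2 to 5 were Ezh2-+/+ and replicate 1 was Ezh2-fl/+, with 1 floxed allele. The deletion therefore depends on Foxp3-driven Cre and can be absent from any cell that had not switched Foxp3 on. The design text calls the libraries of a group biological replicates.

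Ly6 proteins are small, cysteine-rich proteins with a three-finger fold, most of them held on the outer face of the plasma membrane by a glycosylphosphatidylinositol (GPI) anchor. On lymphocytes they serve as markers of maturation and activation, and several are induced by interferons. Ly6a encodes Sca-1, known from blood stem cells and activated T cells, and Ly6c1 and Ly6c2 together make the Ly6C antigen of monocytes and of memory and some regulatory T cells. Ezh2 is the methyltransferase of Polycomb repressive complex 2 and modifies histone H3 at lysine 27 at genes that are kept silent.

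In Ezh2-deficient Tregs, Ly6e and Ly6c1 transcripts were higher and Ly6d transcripts were lower, each with no overlap between the groups, while Ly6a, Ly6c2 and Ly6k did not pass the test. Ly6c1 was 3.63-fold higher, Ly6e 1.60-fold higher and Ly6d 6.28-fold lower by the fitted changes. The calls were therefore 2 higher and 1 lower among 6 tested members, where Ly6d passed the low-count filter only through its WT libraries. Over all 13685 tested genes, 13.1% were called higher and 8.8% lower, 21.9% in either direction, with a threshold of 0.05 on the Benjamini-Hochberg adjusted p that edgeR's quasi-likelihood test gave. The groups did not overlap in 21.2% of them, with 12.5% higher and 8.69% lower in Ezh2-deficient libraries. The median log2 fold change of the 6 members was 0.67, and that of all tested genes was 0.00. With 6 genes, these counts describe the members and were not read as a property of the family.

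The members share sequence, which limits how far their reads can be assigned, and the coding sequences of the 2 closest pairs are shown for that reason. Over the coding sequence of 1 annotated transcript per gene, Ly6c1 and Ly6c2 were identical in 97.73% of aligned positions, with 9 of 396 differing and a longest identical stretch of 188 bases. The first 120 coding bases hold 6 of those 9 differences. They are printed from the spliced transcripts of GENCODE M21 on GRCm38, 5′ to 3′ on the minus strand from the start codon, with the differing bases in capitals. They lie within chr15:75047420-75048511 for Ly6c1 and chr15:75110578-75111667 for Ly6c2.
Ly6c1: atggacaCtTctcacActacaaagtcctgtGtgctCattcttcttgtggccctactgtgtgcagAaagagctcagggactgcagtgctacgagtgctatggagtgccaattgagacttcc
Ly6c2: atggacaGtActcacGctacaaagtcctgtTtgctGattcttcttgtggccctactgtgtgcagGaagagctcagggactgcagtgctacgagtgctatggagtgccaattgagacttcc

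Ly6a and Ly6i, the next closest pair, were identical in 86.42% of 405 positions, and no stretch longer than 80 bases was shared without a difference. Coding bases 169 to 288 are printed in the same way, from chr15:74995379-74996470 for Ly6a and chr15:74980031-74981904 for Ly6i, where 38 of 120 bases differ. Both printed windows were chosen for holding the most differences, so the number of capitals does not stand for the whole sequence. Over the whole coding sequence 55 positions differ in this pair, against 9 in the Ly6c pair.
Ly6a: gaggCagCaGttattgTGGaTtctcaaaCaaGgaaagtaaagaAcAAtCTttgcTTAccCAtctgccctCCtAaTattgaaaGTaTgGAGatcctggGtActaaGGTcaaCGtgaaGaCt
Ly6i: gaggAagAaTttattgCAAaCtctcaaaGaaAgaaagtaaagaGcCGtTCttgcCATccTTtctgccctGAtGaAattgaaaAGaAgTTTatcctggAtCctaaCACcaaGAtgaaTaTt

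Of the 50-base words in 1 full transcript per gene, 36.73% of those of Ly6c1, 32.99% of Ly6c2, 8.05% of Ly6a and 4.97% of Ly6i also occurred in a transcript of another gene. The sharing genes were other members, Ly6g and the pseudogene I830127L07Rik. Ly6d, Ly6e and Ly6k shared none. The sources used here do not say how reads that match several genes were counted. The split between Ly6c1 and Ly6c2 is therefore uncertain. For Ly6e, Ly6d and Ly6k no shared word of that length was found, but only in the 1 transcript searched. For Ly6e that transcript has 2281 bases, and the annotated exons together have 3784.

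The 9 libraries held 32469450 to 62201921 counts, so that 1 count stood for 0.0163 to 0.0308 CPM (counts scaled to library size). Ezh2 itself was at 152 to 167 CPM in the 4 Ezh2-deficient and 233 to 360 CPM in the 5 WT libraries, with no overlap; the counts are per gene, so transcripts that lack only the floxed exons can be among them. Treg markers were present throughout, and of 9 tested 1 was called: Foxp3 was higher, at 1647 to 1967 CPM in Ezh2-deficient and 1293 to 1541 CPM in WT libraries (log2 fold change 0.30, edgeR adjusted p = 0.0313). Cd4 was at 413 ± 18.9 CPM (SD, n = 4) and 469.8 ± 15.5 CPM (SD, n = 5), lower in every Ezh2-deficient library than in any WT library, and did not pass (-0.19, adjusted p = 0.0644). The part of either in the Ly6 differences was not tested. The libraries also fell into 2 sets by a score of 31 hypoxia-response genes (the mean of their log2 CPM), with the scores of Ezh2-deficient replicates 1 and 4 and WT replicates 1, 2 and 4 at 6.89 to 7.16 and those of the other 4 libraries at 5.65 to 5.76. The labels give no such split; both sets hold both genotypes, and results that move with it are given within each set. Cd8a, a defining gene of CD8 T cells, stood at 28.3 to 97.6 CPM in the high-score set, at 41.1 CPM in WT replicate 5 and at 0.361 to 1.98 CPM in the other 3 libraries.

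Per length of exon, Ly6e was the most abundant member by far, followed by Ly6a, and the other 5 were weakly expressed. In WT Tregs the mean level per kilobase was 336 ± 41.2 CPM per kb (SD, n = 5) for Ly6e, a surface protein found on T cells and many other cells. Ly6a stood at 63.6 ± 39.5 CPM per kb. Over all 9 libraries Ly6e ranked 46th and Ly6a 341st of the tested genes on this scale. The WT means of Ly6c1 (2.07 ± 1.02 CPM per kb), Ly6d (1.36 ± 0.619), Ly6k (1.27 ± 0.974) and Ly6c2 (0.991 ± 0.391) followed, and these neighbours lay within each other's spread. In Ezh2-deficient Tregs the order was Ly6e (537 ± 86.8 CPM per kb, SD, n = 4), Ly6a (147 ± 67.9), Ly6c1 (7.57 ± 3.31), Ly6k (2.02 ± 0.36), Ly6c2 (1.03 ± 1.08) and Ly6d (0.21 ± 0.129). On this scale mean Ly6d stood above Ly6k and Ly6c2 in WT, within their spread, and below both in Ezh2-deficient cells. Ly6c2 and Ly6d still overlapped in the latter group. The WT order depends on the exon lengths used, which were 744 bases for Ly6d and 2740 for Ly6c2. Without division by length, the WT means were 2.72 CPM for Ly6c2, 1.05 CPM for Ly6k and 1.01 CPM for Ly6d. Ly6i was last in both groups.

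**Figure D1:**
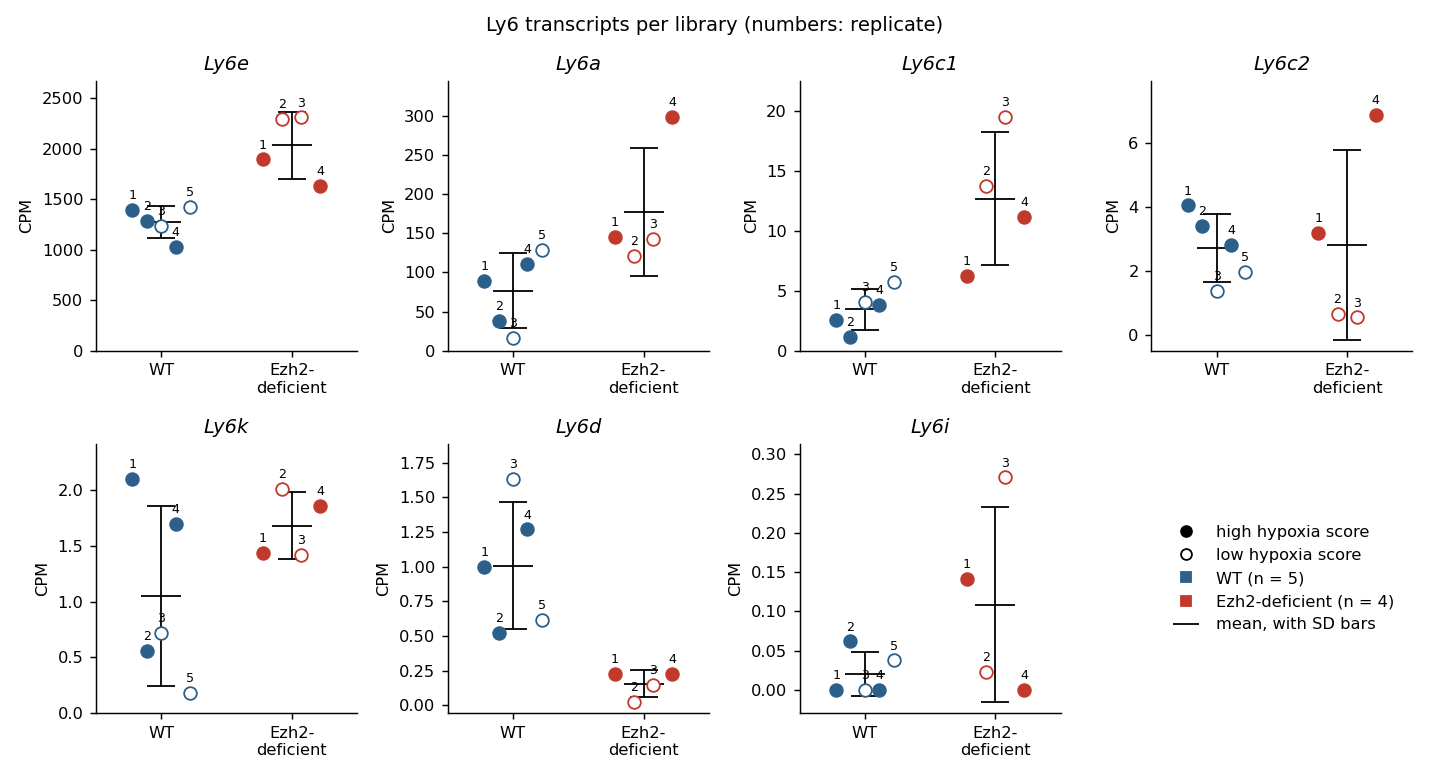
Level of each Ly6 member in CPM (y axis) in the 5 WT and 4 Ezh2-deficient libraries; numbers are replicates, filled points have a high and open points a low hypoxia score, and bars are mean and SD. The groups do not overlap for Ly6e, Ly6c1 and Ly6d, and Ly6c2 is lowest in the open points of each group.

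Ly6e (ENSMUSG00000022587; GRCm38 chromosome 15, 74955051 to 74959905, plus strand) encodes a GPI-anchored protein that is induced by interferon and is known as a host factor that limits or aids entry of several viruses. It was at 1893, 2292, 2309 and 1632 CPM in Ezh2-deficient replicates 1 to 4. In WT replicates 1 to 5 it was at 1395, 1281, 1239, 1030 and 1421 CPM. Every Ezh2-deficient library lay above every WT library. On average Ly6e stood at 2031 ± 328 CPM (SD, n = 4) against 1273 ± 156 CPM (SD, n = 5), and the log2 fold change was 0.67 (SE 0.12, edgeR adjusted p = 0.00287). Ly6e alone made up 83.7 to 94.3% of the counts of all 7 members in Ezh2-deficient and 89.5 to 98.1% in WT libraries, so the family total follows it. That total was 1951 to 2474 CPM in Ezh2-deficient and 1150 to 1558 CPM in WT libraries.

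Within the high-score set Ly6e was at 1632 to 1893 CPM in Ezh2-deficient (n = 2) and 1030 to 1395 CPM in WT libraries (n = 3). Within the low-score set it was at 2292 to 2309 CPM (n = 2) and 1239 to 1421 CPM (n = 2). This order within each set follows from the separation over all 9 libraries and adds no support of its own. Fitted within the high-score and the low-score set, the log2 fold change was 0.51 and 0.76 (edgeR adjusted p = 0.0459 and 0.0368).

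Ly6a (ENSMUSG00000075602; chromosome 15, 74994877 to 74998031, minus strand) varied more within groups than Ly6e did. It was at 146, 121, 143 and 299 CPM in Ezh2-deficient replicates 1 to 4. WT replicates 1 to 5 were at 89, 38.4, 16.6, 111 and 129 CPM. Ezh2-deficient replicate 4 stood far above the others, and 3 of 4 Ezh2-deficient libraries lay above all WT libraries; the groups overlapped through Ezh2-deficient replicate 2 and WT replicate 5. Mean Ly6a was 177 ± 81.8 CPM (SD, n = 4) against 76.7 ± 47.6 CPM (SD, n = 5), and the log2 fold change of 1.21 (95% interval -0.17 to 2.58) did not pass (edgeR adjusted p = 0.181). The interval includes no change as well as a rise of the size seen for Ly6c1.

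Ezh2-deficient replicate 4, with the highest Ly6a, was its group's highest in Cd8a too, at 79.9 CPM, and WT replicate 3, with the lowest Ly6a, was its group's lowest in Cd8a at 1.98 CPM. The other extremes did not coincide: WT replicate 4, with the most Cd8a of all (97.6 CPM), was below WT replicate 5 in Ly6a, and Ezh2-deficient replicate 3, with the least Cd8a, was above replicate 2 in Ly6a. Activated CD8 T cells are known to carry Sca-1, and their part in the Ly6a levels was not tested. In the 3 libraries with the least Cd8a, Ly6a was at 121 and 143 CPM in Ezh2-deficient replicates 2 and 3 (Cd8a 0.936 and 0.361 CPM) and at 16.6 CPM in WT replicate 3. Cd8b1, the other CD8 chain gene, was at 15.4, 13.9 and 14.2 CPM in the same 3 libraries. With the Cd8a level as a covariate the Ly6a change was 1.79 and passed (edgeR adjusted p = 0.0482; 0.0482 to 0.68 over all alternatives). Without Ezh2-deficient replicate 4 it was 0.80 (adjusted p = 0.423). In these bulk samples, a change in the number of cells that carry a transcript and a change in its amount per cell cannot be told apart.

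**Figure D2:**
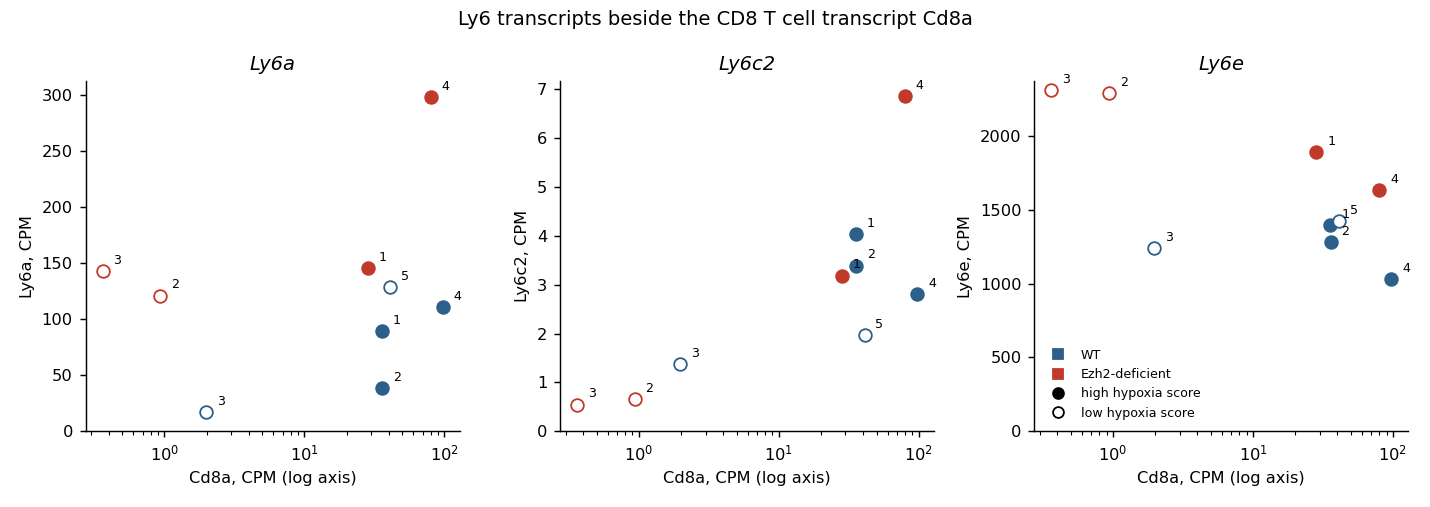
Ly6a, Ly6c2 and Ly6e in CPM (y axes) against Cd8a in CPM (x axis, log scale) in all 9 libraries; colours are the groups, filled points have a high and open points a low hypoxia score, and numbers are replicates. Ly6a was at 121 and 143 CPM in the 2 Ezh2-deficient libraries with under 1 CPM of Cd8a, and Ly6c2 was at 0.662 and 0.542 CPM there.

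Ly6i (ENSMUSG00000022586; chromosome 15, 74979534 to 74983430, minus strand), a close relative of Ly6a, was near the floor. The 4 Ezh2-deficient libraries had 5, 1, 9 and 0 counts and the 5 WT libraries 0, 2, 0, 0 and 2, in replicate order. Only Ezh2-deficient replicates 1 and 3 were above the floor of 3 counts, so no fold change is given. The 33616 and 18160 Ly6a counts of the 2 groups thus stood beside 15 and 4 Ly6i counts, and adding the pair up left the Ly6a change at 1.21.

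Ly6c1 (ENSMUSG00000079018; chromosome 15, 75044018 to 75048830, minus strand) was at 6.23, 13.8, 19.6 and 11.2 CPM in Ezh2-deficient replicates 1 to 4. WT replicates 1 to 5 had 2.57, 1.17, 4.1, 3.81 and 5.72 CPM. All 4 Ezh2-deficient libraries lay above all 5 WT libraries, by a narrow margin between Ezh2-deficient replicate 1 and WT replicate 5. Mean levels were 12.7 ± 5.55 CPM (SD, n = 4) against 3.47 ± 1.71 CPM (SD, n = 5), and the log2 fold change was 1.86 (SE 0.41, edgeR adjusted p = 0.0104). This was the largest rise among the tested members.

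Ly6c2 (ENSMUSG00000022584; chromosome 15, 75108158 to 75111970, minus strand) showed a different pattern. It was at 3.18, 0.662, 0.542 and 6.86 CPM in Ezh2-deficient replicates 1 to 4. The WT values were 4.04, 3.39, 1.38, 2.8 and 1.96 CPM in replicates 1 to 5. The Ezh2-deficient libraries were thus both the lowest (replicates 2 and 3) and the highest (replicate 4) of all 9. The means of 2.81 ± 2.96 CPM (SD, n = 4) and 2.72 ± 1.07 CPM (SD, n = 5) differed by less than their spread (log2 fold change 0.06, 95% interval -1.43 to 1.56, edgeR adjusted p = 0.959). The interval is too wide to show that Ly6c2 was alike in both groups, and the sign of the change turned in 10 of 24 alternatives.

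Ly6c1 and Ly6c2 went opposite ways with the hypoxia score inside each genotype. In WT libraries Ly6c2 was at 2.8 to 4.04 CPM in the high-score and 1.38 to 1.96 CPM in the low-score set, whereas Ly6c1 was at 1.17 to 3.81 and 4.1 to 5.72 CPM. In Ezh2-deficient libraries Ly6c2 was at 3.18 to 6.86 and 0.542 to 0.662 CPM, and Ly6c1 at 6.23 to 11.2 and 13.8 to 19.6 CPM. None of these 4 pairs of ranges overlapped, with 2 or 3 libraries in each. The share of all tested genes that separate the score sets in this way was not counted. The ranges therefore describe these 2 genes only. The score's own part in this was not tested, and Cd8a moved with it in all libraries but WT replicate 5.

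The share of Ly6c1 in the counts of both genes was 66.2, 95.4, 97.3 and 62% in Ezh2-deficient replicates 1 to 4. WT replicates 1 to 5 gave 38.9, 25.7, 74.9, 57.6 and 74.5%. The exact 95% binomial intervals, which cover counting error only, ran from 18.9 to 33.5% at the lowest share and from 95.8 to 98.4% at the highest. The means of 80.2 ± 18.7% (SD, n = 4) and 54.3 ± 21.8% (SD, n = 5) differed by 25.9 percentage points, which did not pass a two-sided exact permutation test (p = 0.127; the smallest p that 126 splits allow is 0.0159). Within the high-score set the share was 62 to 66.2% in Ezh2-deficient and 25.7 to 57.6% in WT libraries, and within the low-score set 95.4 to 97.3% and 74.5 to 74.9%. With the group labels permuted within each set, which was added after the data were seen, the difference was 22.6 points (two-sided exact permutation p = 0.0333, the smallest that 60 splits allow). The shares do not overlap in either set, which fixes the p of this test, so it adds no support of its own. Within 1 set alone the smallest p such a test can give is 0.2 (high score) or 0.333 (low score).

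Counted as 1 gene, Ly6c1 and Ly6c2 rose in Ezh2-deficient Tregs, with a log2 fold change of 1.32 (edgeR adjusted p = 0.00147). The sums were 9.41, 14.4, 20.1 and 18.1 CPM in Ezh2-deficient replicates 1 to 4. The WT sums were 6.61, 4.56, 5.48, 6.61 and 7.68 CPM in replicates 1 to 5. The groups did not overlap, and this sum does not depend on how reads were divided between the pair. Both genes also share 50-base words with Ly6a, and Ly6c2 with I830127L07Rik. How reads shared with those genes were counted can still bear on the sum.

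**Figure D3:**
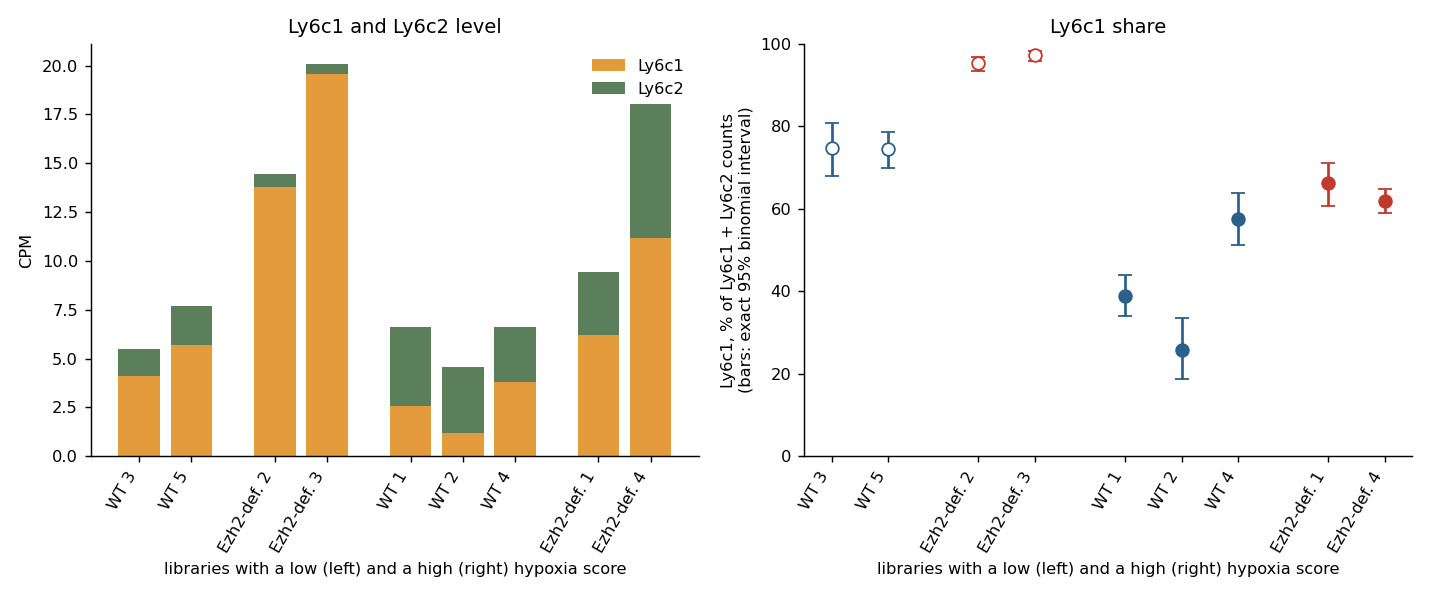
Left, Ly6c1 and Ly6c2 stacked, in CPM; right, the Ly6c1 share of their counts in percent with its exact 95% binomial interval. Libraries with a low hypoxia score are on the left and with a high score on the right, and colours on the right are blue for WT and red for Ezh2-deficient; the summed level is higher in each Ezh2-deficient library than in each WT library, and the share is higher within each score set.

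Of the 2 Ly6c genes and the other 5 members, promoter sequences from RefSeq (GRCm38.p6, 250 bases before to 50 after the start) were at hand for Ly6c1 and Ly6c2, 2 of 7. Where their first listed promoters overlap in an alignment they were identical at 73.76% of 282 positions, well under the 97.73% of the coding sequence. The interferon-response motif TTCNNNGAA (known as GAS) and the core of the ISRE motif, searched on both strands, occurred in 0 of the listed Ly6c1 and Ly6c2 promoters. They occurred in 8.3% and 3.44% of all 32851 promoters of that length. No match says only that these letters are not in these windows.

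Ly6d (ENSMUSG00000034634; chromosome 15, 74762056 to 74763620, minus strand) encodes the ThB antigen, a marker of early B cell progenitors, thymocytes and keratinocytes. It had 8, 1, 5 and 14 counts in Ezh2-deficient replicates 1 to 4, or 0.225, 0.0228, 0.15 and 0.228 CPM. In WT replicates 1 to 5 it had 59, 17, 57, 48 and 33 counts, or 0.998, 0.524, 1.63, 1.27 and 0.617 CPM. Every Ezh2-deficient library lay below every WT library. Ly6d passed the low-count filter through its WT libraries, and all 4 Ezh2-deficient libraries were under that filter's level. Its separation and its call therefore concern a gene that was kept because of the group in which it is high. Ezh2-deficient replicate 2, with 1 count, was also under the floor of 3 counts. Group means were 0.157 ± 0.0961 CPM (SD, n = 4) against 1.01 ± 0.46 CPM (SD, n = 5), and the log2 fold change was -2.65 (SE 0.56, edgeR adjusted p = 0.00627). Within the high-score set the log2 fold change was -2.04 and within the low-score set -3.77. Neither passed with 2 or 3 libraries a group (edgeR adjusted p = 0.0561 and 0.0824). That the groups do not overlap in either set follows from their separation over all 9 libraries.

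B cell transcripts are given beside Ly6d because its level is known from that lineage. Of 4 tested B cell markers, 1 was called lower, Cd79a, a chain of the B cell receptor complex, at 0.885 ± 0.329 against 2.33 ± 0.461 CPM (edgeR: log2 fold change -1.38, adjusted p = 0.00716). All 5 markers of the list had counts, and Pax5, the defining transcription factor, had 14 counts in Ezh2-deficient and 81 in WT libraries. The summed level of the list was 12.6 to 17.6 CPM in Ezh2-deficient and 16.8 to 19.7 CPM in WT libraries. Their part in the lower Ly6d level was not tested.

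Ly6k (ENSMUSG00000044678; chromosome 15, 74796874 to 74799986, minus strand), known for its role in sperm, overlaps the antisense gene Gm17189, which had 1 count in all. It was at 1.44, 2.01, 1.41 and 1.85 CPM in Ezh2-deficient replicates 1 to 4. In WT replicates 1 to 5 it was at 2.1, 0.555, 0.717, 1.69 and 0.187 CPM. The Ezh2-deficient libraries lay close together and inside the wide WT range, which spanned 11.2-fold. The log2 fold change of 0.67 (95% interval -0.48 to 1.82) did not pass (edgeR adjusted p = 0.383).

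All 7 members lie in a stretch of chromosome 15, and the genes around them moved in both directions. From Psca to Top1mt (74714839 to 75678800) GENCODE M21 lists 55 genes, of which 25 had a count and 12 were tested. Of these, 3 were called higher and 3 lower, with a median log2 fold change of 0.14. Those calls include the members Ly6e and Ly6c1 (higher) and Ly6d (lower). Over all tested genes 13.1% were called higher and 8.8% lower. Besides the members, Lynx1, a Ly6-related gene whose product binds nicotinic acetylcholine receptors, stood at 8.66 ± 2.22 and 4.27 ± 0.641 CPM and was called higher (edgeR: 1.01 on the log2 scale, adjusted p = 0.00314). Top1mt, the mitochondrial topoisomerase gene at the far end, stood at 1.71 ± 0.422 and 4.29 ± 1.27 CPM and was called lower (-1.32, adjusted p = 0.00432). The zinc finger gene Zfp41 was called lower too (-0.40, adjusted p = 0.0171). Ly6d and Lynx1 are neighbours and moved in opposite directions. Them6, 2010109I03Rik and 2810039B14Rik did not pass (log2 fold change -0.23, 0.22 and -0.20).

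**Figure D4:**
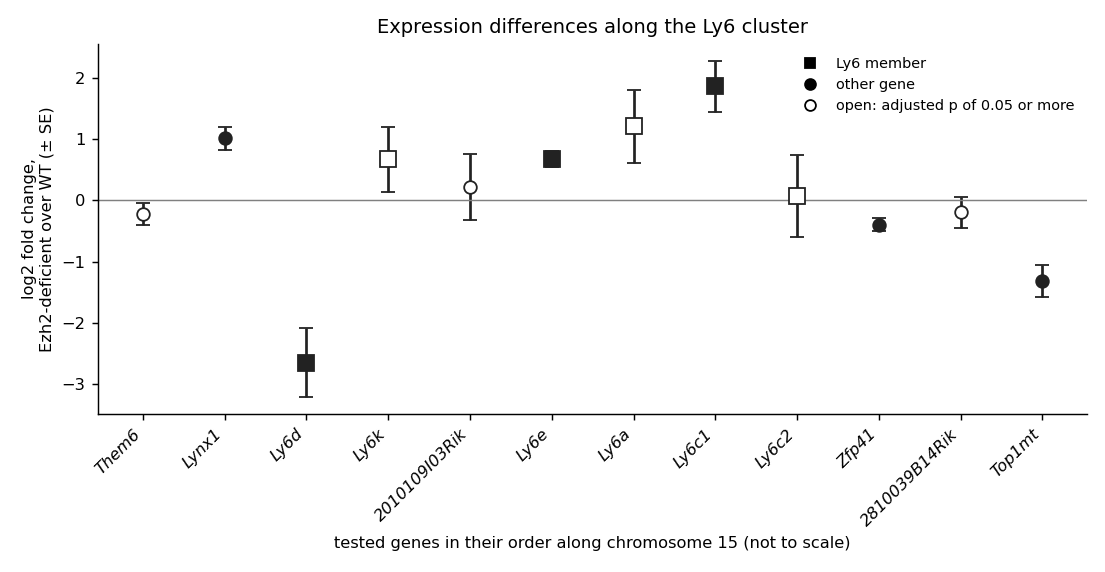
Log2 fold change, Ezh2-deficient over WT, with its SE (y axis) for the 12 tested genes between Psca and Top1mt in chromosomal order (x axis, not to scale); squares are Ly6 members and filled symbols have an adjusted p under 0.05. Genes called higher (3) and lower (3), members included, both lie in the stretch.

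Of 36 other genes with Ly6/uPAR-type or related domains in the table, 18 had a count and 8 were tested. Among them 2 (25%) were called higher and 0 lower, beside 13.1% and 8.8% of all tested genes. An unadjusted p under 0.05 was found for 4 of the 8. Bambi, which encodes a decoy receptor of the TGF-beta family, stood at 17 ± 4.29 and 4.96 ± 0.65 CPM (edgeR: 1.78 on the log2 scale, adjusted p = 7.14e-05), and Lynx1 was the other. Plaur, the urokinase receptor gene, was at 7.03 ± 3.3 and 5.95 ± 1.41 CPM and did not pass (0.24, adjusted p = 0.666). The complement inhibitor genes Cd59a and Cd59b (0.73 and 0.68), Ly6g5b (0.49), Pate2 (0.80) and Cd177 (1.24) did not pass either, with adjusted p from 0.0788 to 0.375.

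The genes that attach GPI anchors, on which most Ly6 proteins depend, moved both ways. Of 30 tested, 7 (23.3%) were higher and 3 (10%) lower, with a median log2 fold change of 0.04. The shares over all tested genes were 13.1% and 8.8%. The mannosyltransferase gene Pigz rose to 27.9 ± 5.29 CPM from 9.94 ± 2.64 CPM in WT (edgeR: 1.48 on the log2 scale, adjusted p = 0.000562), and Pgap1, which remodels the lipid of the anchor, by 1.01 (adjusted p = 0.00144). Pigm was higher by 0.30 (adjusted p = 0.0135). Gpaa1, a subunit of the transamidase that joins the anchor to the protein, stood at 45.2 ± 7.61 and 71.4 ± 17.1 CPM and was lower (-0.66, adjusted p = 0.0178), as were Pigo (-0.36) and Pigk (-0.29), both named after their values were seen. The number higher was 2 to 4 when Ezh2-deficient replicate 1, 3 or 4 was left out, likewise WT replicate 3, and 2 within the high-score and 1 within the low-score set; the number lower was 5 without Ezh2-deficient replicate 2.

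Of 24 tested genes in a list of other, mostly GPI-anchored, surface proteins of lymphocytes, 9 (37.5%) were higher and 0 lower. The shares over all tested genes were 13.1% and 8.8%. The list's median log2 fold change was 0.22, and 10 of its genes had an unadjusted p under 0.05. Of those 9, Tnfrsf10b (0.75), H60b (1.75) and Ulbp1 (0.58), named after their values were seen, encode proteins known to have a transmembrane segment instead of the anchor. Art2b, an ADP-ribosyltransferase of T cells, rose to 4.49 ± 0.902 CPM from 1.29 ± 0.18 CPM in WT (edgeR: 1.79 on the log2 scale, adjusted p = 0.000214). Cd55, a complement regulator, rose by 0.89 and the prion protein gene Prnp by 0.59 (adjusted p = 0.00112 and 0.00463). Raet1d, a ligand gene of the NKG2D receptor, rose by 1.83 (adjusted p = 0.00423). Within the high-score set 5 of these genes were called higher and within the low-score set 2, and 1 was called lower without WT replicate 5.

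Interferon genes are given because Ly6a, Ly6c and Ly6e are known to respond to interferons. Of 15 receptor and signalling genes, 5 (33.3%) were higher and 0 lower, beside 13.1% and 8.8% of all tested genes. Their median log2 fold change was 0.27, and 9 had an unadjusted p under 0.05. The receptor genes Ifngr1 and Ifnar1 rose by 0.58 and 0.36 (edgeR adjusted p = 0.0107 and 0.00706), Irf2 by 0.35 (adjusted p = 0.0144) and the kinase gene Jak1 by 0.27 (adjusted p = 0.04); the other was Ptpn2 (0.29), named after its value was seen. The number higher was 2 or 3 without any single Ezh2-deficient library, 3 without WT replicate 3 or 5, and 2 within the high-score and 0 within the low-score set. Of 53 interferon-stimulated genes tested, 14 (26.4%) were higher and 1 (1.89%) lower, with a median of 0.29. The number higher was 9 without Ezh2-deficient replicate 1 and 7 without Ezh2-deficient replicate 3. It was 5 within the high-score and 2 within the low-score set. Parp12 rose by 1.67 and the RNA sensor gene Ifih1 by 0.93 (adjusted p = 0.000359 and 0.000576), and Trim30a and Herc6 rose by 0.50 and 0.54 (adjusted p = 0.00297 and 0.00453). The 1 called lower was Psmb8, a proteasome subunit gene (-0.24, adjusted p = 0.0362), named after its value was seen; that call was lost when any of Ezh2-deficient replicates 1, 3 and 4 was left out, likewise WT replicates 1, 2 and 4.

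Ly6C is used among other antigens to describe resting Tregs, so genes of naive and central T cells were also counted. Of 20 tested, 10 (50%) were called higher, beside 13.1% of all tested genes, with a median log2 fold change of 0.40. The number higher was 2 within the low-score set. Id3, an inhibitor of E proteins, rose by 1.21, the cytokine receptor gene Il6st by 0.73, the kinase gene Txk by 0.69 and the chromatin organiser gene Satb1 by 1.16 (edgeR adjusted p = 8.07e-05, 0.000432, 0.000858 and 0.00161). The list did not move as a whole. Ccr7 (0.38) and Il7r (0.52) did not pass. Neither did Tcf7 (-0.06), Klf2 (-0.24), Actn1 (-0.37) and Dapl1 (-0.32), whose changes were negative. These genes were named after their values were seen. Of 31 hypoxia-response genes, Car12 alone was called, higher by 0.71 (adjusted p = 0.00287), and 0 were lower, with a median of -0.19. The number lower was 6 with the replicate number as a block, 9 with the hypoxia score as a covariate and 2 within the low-score set, and the number higher was 2 within either set and 3 with the hypoxia score or Cd8a as a covariate. The 3 of smallest adjusted p after it, Gapdh (-0.38), Pgam1 (-0.68) and Ddit4 (0.31), did not pass.

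Markers of other cells that carry Ly6 antigens were measured in the same libraries. Of the monocyte and macrophage list, all 7 genes had a count and 3 were tested, of which Adgre1 and Itgam were higher (log2 fold change 1.75 and 0.80; edgeR adjusted p = 0.00515 and 0.00817). Its sum was 37.5 to 55 CPM in Ezh2-deficient and 15.4 to 41.2 CPM in WT libraries. The defining genes Lyz2, Csf1r, Cd14 and Fcgr1 were near 0, with 11, 11, 1 and 0 counts in Ezh2-deficient and 5, 8, 42 and 2 in WT libraries. Neutrophil genes summed to at most 0.0282 CPM, with S100a9, Elane and Retnlg at 0 counts.

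The CD8 pair summed to 14.2 to 130 CPM in Ezh2-deficient and 16.1 to 147 CPM in WT libraries and did not pass in either gene. Natural killer genes summed to 4.00 to 26.6 and 6.26 to 14.9 CPM, with Ncr1, Klra8 and Klra4 at 0. Endothelial genes, in which Pecam1 holds nearly all counts, summed to 198 to 247 and 167 to 220 CPM, and plasma cell genes, mostly Xbp1, which activated T cells also express and which rose by 0.57 (edgeR adjusted p = 0.0165), to 635 to 857 and 383 to 607 CPM. Dendritic cell genes summed to 2.11 to 3.58 and 1.66 to 2.91 CPM, and epithelial genes to 13.5 to 20.7 and 11.2 to 27.3 CPM, with Krt14 and Krt8 at 0 and Krt18 higher by 1.13 (edgeR adjusted p = 0.0257). Epcam, which holds most of the epithelial counts, was at 15.2 ± 3.01 and 17.7 ± 6.57 CPM and did not pass (-0.22, edgeR adjusted p = 0.558). The part of these cell types in the higher Ly6e and Ly6c1 levels was not tested.

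For Ly6e and Ly6a, the members with the highest mean CPM, the 3 genes of most similar pattern were sought among 8620 tested genes with a mean of at least 10 CPM, by Pearson's r of log2 CPM over the 9 libraries. For Ly6e they were Tmco3 (r = 0.989), Sept8 (0.987) and Bicd2 (0.987), which were all called higher in Ezh2-deficient cells, by 1.23, 0.81 and 0.51 on the log2 scale (edgeR adjusted p = 0.00382, 0.00182 and 0.00334). For Ly6a they were Rras (r = 0.983), Gpr55 (0.959) and Tlr2 (0.956), with log2 fold changes of 0.28, 0.59 and 0.75 (adjusted p = 0.144, 0.0432 and 0.168). These values are a description over 9 libraries that share genotype and hypoxia score. Between the members themselves, r was -0.91 for Ly6d and Ly6e and -0.61 after each group's mean was removed, and 0.77 and 0.23 for Ly6c1 and Ly6e.

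The calls of Ly6e and Ly6c1 stood in all alternatives tried, and that of Ly6d in 20 of 22. The log2 fold change of Ly6e lay between 0.51 and 0.76 (highest adjusted p 0.0459) and that of Ly6c1 between 1.32 and 2.30 (highest adjusted p 0.0498), where the lowest change is that of the summed pair.

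**Figure D5:**
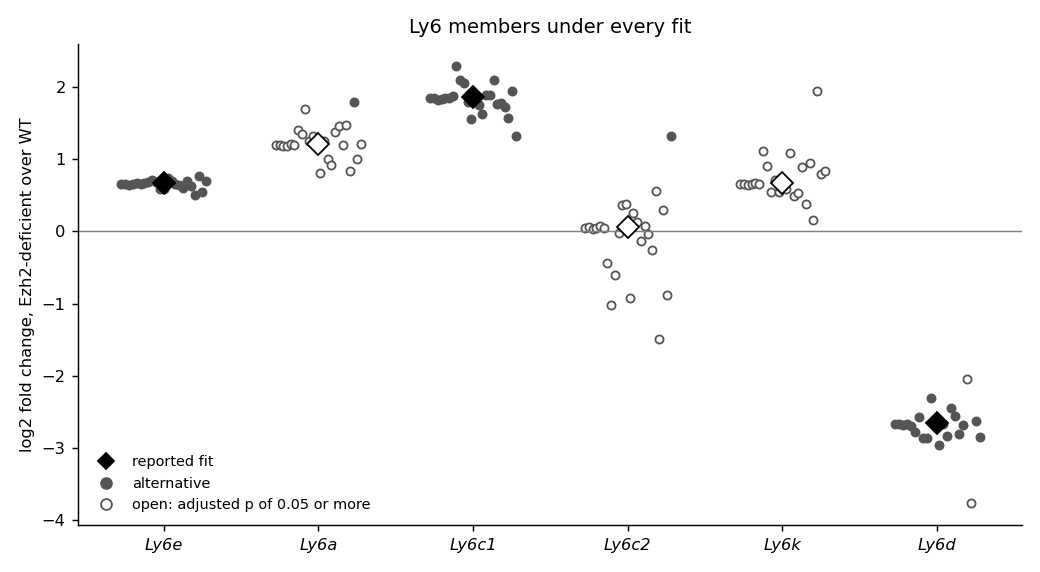
Log2 fold change, Ezh2-deficient over WT (y axis), of the 6 tested members in the reported fit (diamonds) and in each alternative fit (circles); filled symbols have an adjusted p under 0.05. Ly6c2 lies on both sides of 0, and its 1 filled circle, at 1.32, is Ly6c1 and Ly6c2 counted as 1 gene.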

How the data were processed

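RNA was sequenced with a stranded Illumina mRNA kit, per the labels' protocols, in 4 Ezh2-deficient and 5 WT libraries. The authors deposited whole-number counts per Ensembl gene, not normalized, per the file headers and values. STAR and GRCm38 are named in the submitters' processing notes; the sources used here do not give the counting tool, its strand setting or the annotation release. Symbols and positions came from GENCODE M21 on GRCm38, which held 42462 of 43432 identifiers. The default low-count filter of edgeR kept 13685 of the 22839 genes that had any count. TMM scaling was followed by the quasi-likelihood F-test in its robust form (edgeR 4.0.16, R 4.3.3), all 9 libraries in 1 fit, two-sided, with Benjamini-Hochberg adjustment over all tested genes and a threshold of 0.05. Log2 CPM used a prior count of 2, levels per kb used the union of annotated exons, and intervals of fold changes are 95%. The test was tried on simulated counts. Library pairs of a group differed by a chi-square of at least 23.6 per degree of freedom, so none was a duplicate.

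Reads carry no molecular identifiers, so counting intervals cover counting error only. Alternatives were 3 other scalings, no filter or 1 CPM in 4 libraries, limma-voom (limma 3.58.1) plain or with sample quality weights, DESeq2 1.42.0, a block for the replicate number, leaving out each library in turn, the hypoxia score or Cd8a as a covariate, each hypoxia score set alone (divided at the widest gap), and close pairs summed. Leaving out the highest-Cd8a library of each group and permuting the Ly6c share within hypoxia score sets were chosen after seeing the data. The members and lists were chosen with earlier results of these data known. Named genes were the members, tested Ly6/uPAR relatives and chromosome 15 neighbours, up to 4 genes of smallest adjusted p per list, and the 3 nearest patterns of the 2 highest members; marker genes were named beside results they bear on. In the list of naive and central T cell genes, 1 gene is not reported here.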

Additional observations from a re-analysis of the deposited data

Results flagged for a closer look

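Ly6a was at 299 CPM in Ezh2-deficient replicate 4, far from the next library of its group at 146 CPM, a gap of 0.862 of the group's range, past Dixon's 95% critical value for 4 libraries. Cd8a was highest of its group in the same library. Foxp3 was at 1293 CPM in WT replicate 5, below the next WT library at 1486 CPM, a gap of 0.778 of the range, past the critical value for 5 libraries. These were 2 of 24 groups of values examined, and chance flags about 1 in 20.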

How the results depend on the processing

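Ly6e, Ly6c1 and Ly6k kept their direction and their side of the threshold in all alternatives run. Ly6a passed only with Cd8a as a covariate (1.79). Ly6d lost its call within the high-score (-2.04) and low-score (-3.77) libraries, where fewer samples were fitted, so that 0 members were lower in both; 0 were also lower with the filter of 1 CPM in 4 libraries, which removes Ly6d. Ly6c2 turned negative with limma-voom (-0.43), quality weights (-1.03), the hypoxia score as covariate (-0.26), the low-score libraries (-1.50) and without the highest-Cd8a library of each group (-0.89). It was -0.92 (without Ezh2-deficient replicate 4) to 0.38 without single libraries, and the summed pair was at 1.32; the cause was not tested. The Ly6c1 share difference was 18.8 to 32 points without single libraries. It was 22.6 points with labels permuted within each hypoxia score set (two-sided exact permutation p = 0.0333). That test was chosen after the data were seen. The shares do not overlap in either set, which fixes its p at the smallest value the splits allow.

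With the replicate block Ly6c2 was at -0.60 and the other 5 tested members kept their side of the threshold. Same-numbered libraries correlated at -0.08 to 0.19 after group means were removed and 0 of 4 correlated best with their own number, so the numbers were not taken to pair them.

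Over all genes, 1170 to 1744 were higher and 802 to 1477 lower without single libraries, the lowest without Ezh2-deficient replicate 3. Higher and lower numbered 1067 and 697 in the high-score and 424 and 146 in the low-score libraries; 1938 were lower with Cd8a as covariate and 663 without the highest-Cd8a libraries. Of 322 list counts, 265 stayed within 1.5 times, 18 moved up and 39 down. Ly6i, with 15 and 4 counts in the 2 groups, could not be tested at this depth.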

Other observations

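Ly6g, the gene of the neutrophil antigen and a close relative of the Ly6c pair, was not tested and was singled out after its counts were seen. It had 24 counts in Ezh2-deficient replicate 4 and 23 in WT replicate 4, the libraries with the highest Cd8a of their groups (79.9 and 97.6 CPM). The other 7 libraries had 0 to 7 Ly6g counts. Neutrophil genes of the fixed list had 1 S100a8 and 1 Mpo count over all libraries.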
